A study of Drosophila melanogaster with 2 samples.

Results

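In a chromatin immunoprecipitation and sequencing (ChIP-seq) experiment on Drosophila melanogaster embryos, 866 of 30000 peak summits of the Lola isoform J lay in 3' UTRs, the transcribed but untranslated ends of protein-coding genes. A summit is the position of highest signal within a peak. A summit was counted here when it lay inside an annotated 3' UTR, outside any coding sequence and more than 500 bp from every protein-coding transcription start site (TSS). Of 1145 summits inside a 3' UTR, 49 were left out for a coding sequence and a further 230 for a nearby TSS. The 866 summits had 866 distinct peak intervals and fell in the 3' UTRs of 699 genes. These were 6.10% of the 11459 coding genes that had any 3' UTR left under the same rules. Distinct intervals are not identical but can overlap, as they did in the gene CG4004. Another summit of the full peak list lay within 500 bp of 287 of the 866 (33.1%). The 866 summits are therefore not shown to be as many separate sites.

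The samples formed 1 group, the strain lola-J-GFP. Its embryos carried a transgene for Lola-RJ with GFP at the C terminus, and chromatin was drawn down with an antibody against GFP, although the antibody field of the labels lists lola. Whole embryos of mixed sex aged 0 to 12 h were used, so every cell type and stage of that period was pooled, and the chromatin was sonicated to 200 to 800 bp. The labels name 2 biological replicates, numbered 1 and 3, and the peaks were called against a control alignment per the submitters' file records. No other genotype, stage or mock precipitation was used here, so nothing below compares conditions and no p-value is given. Each replicate has its own list of 30000 peaks, and the list used here was called on both replicates together. The 6154 strongest peaks of that list make up the list thresholded by the irreproducible discovery rate (IDR), a measure of how well the ranks of peaks agree between replicates.

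Lola (longitudinals lacking) is a BTB-domain zinc finger transcription factor known for its roles in axon growth and guidance. Its gene makes many splice forms that share the BTB domain and differ in their zinc fingers, so that isoforms can bind different DNA. A 3' UTR holds sites for RNA-binding proteins and microRNAs and ends at the cleavage and polyadenylation site. In a compact genome its DNA can also lie close to the end of a convergent gene or to the promoter of the next gene.

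The DNA under the strongest of these summits is shown here. As a group, the summits in the IDR-thresholded list had a higher median A/T content and lay more often near the gene's end, as described below. Their A/T values overlapped those of the rest, and most of them did not lie in the last 100 bp of the 3' UTR. Each line gives 30 bases around 1 of the 13 strongest summits, all found in both replicates and shown except that of qvr, on the strand of the host gene and read 5' to 3'. Capitals mark runs of 4 or more A or T bases. The letters come from the RefSeq genome of the dm6 assembly. The sites are CG9837 at 3R:8808648-8808677, sv at 4:1113292-1113321, CG5984 at 3R:27246400-27246429, scf at 3L:1300325-1300354, CG4004 at X:12748391-12748420 and CG7872 at X:15579795-15579824. The others are CG33307 at 2L:13839944-13839973, CG7378 at X:18910997-18911026, CG46304 at 2L:18947049-18947078, Uck at 3R:24293338-24293367, CG9522 at X:14846539-14846568 and CG9107 at 2L:6022996-6023025.
CG9837: gcacctgcaatcATTTTcgtgaagTATTga
sv: TAAAgtgtagctctgAATAccctttcAAAA
CG5984: AATAAATTcacTAAAATAAcagTTATATAA
scf: aacaagatcATTTTAgagTTTAgttgcaac
CG4004: acacaatgTATTATTgTTTTctatcAATTA
CG7872: acattcgcgtgtttcctaactaacttgact
CG33307: acTATATgaacTTAAAcTATTTATTTAAAA
CG7378: tatctaggAAAATTAAAAActtgtcacaga
CG46304: gctgtgAAAAAATAAATAATATAAATAAAA
Uck: ATTTTTTcagTAAAcacAATTgattgttga
CG9522: TATATcATTATTATTTTcaacATTTTgaaa
CG9107: TTATAcATTATTATAATATATTATTgAAAA

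These windows ranged from 18 A or T bases in CG9837 and CG7872 to 28 of 30 in CG9107. The longest unbroken A/T run was 24 bases in CG46304, and CG7872 had no run longer than 3 bases. The summit of qvr, whose letters are not printed, had 51.5% A/T within 50 bp on either side, the lowest of the 13. The other 12 lay between 61.4% in CG7872 and 86.1% in CG46304.

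The strongest summit lay in the 3' UTR of CG9837, a gene named by its annotation number. Its signal was 1463 in the pooled list, 748.8 in replicate 1 and 724.2 in replicate 3, and it ranked 202, 179 and 220 in these lists. The signal is the authors' peak value, whose scale is not given in the sources used here, so levels are set against each other only within a list. The second strongest lay in the shared end of sv, which encodes the Pax transcription factor shaven of sensory organ development, and Cals, which encodes the synaptic membrane protein calsyntenin. Its signal was 995.4 in the pooled list, 457.4 in replicate 1 and 540.0 in replicate 3. CG5984 followed with 839.3 in the pooled list, 456.8 in replicate 1 and 388.6 in replicate 3. The summit in scf, which encodes a calcium-binding protein, had 755.3 in the pooled list, 390.0 in replicate 1 and 368.6 in replicate 3. These 4 summits ranked between 179 and 803 in every list, so each replicate on its own placed them among its strongest peaks.

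The next summits were those of CG4004 with a pooled signal of 587.5, CG7872 with 584.3, CG33307 with 534.6 and CG7378 with 498.0. The summit in qvr, which encodes a small membrane-anchored regulator of potassium channels that is needed for sleep, had 449.8. CG46304 had 392.6 and Uck, which encodes a uridine-cytidine kinase, had 373.0. These 2 differed most between the replicates. CG46304 ranked 3567 in replicate 1 and 1322 in replicate 3, and Uck ranked 1559 in replicate 1 and 3177 in replicate 3. The 20 strongest were completed by CG9522, CG9107, CG10357, CG14440, Tctp, stas, CG10570, smal and Tollo, with pooled signals between 331.5 and 216.9. Tctp encodes a conserved growth regulator and Tollo a Toll-family receptor that acts in the early embryonic epidermis. All 20 had a summit within 100 bp in both replicates.

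**Figure D1:**
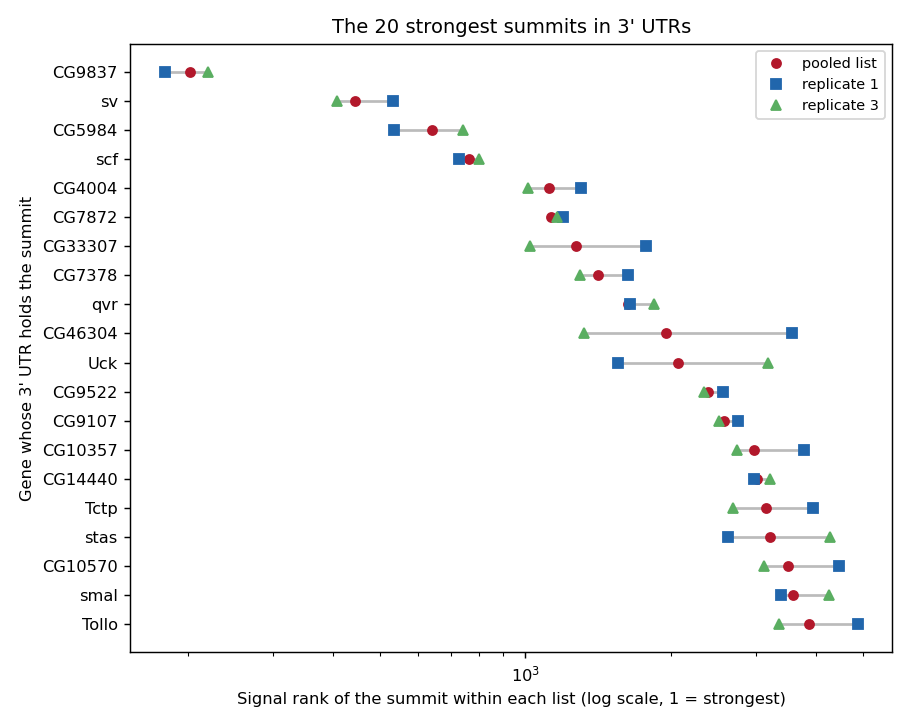
Signal rank (log axis, 1 is strongest) of the 20 strongest 3' UTR summits in the pooled list (circles), in replicate 1 (squares) and in replicate 3 (triangles), with a grey line over the range of the 3. CG9837 leads at ranks 202, 179 and 220, and CG46304 has the widest range, from 1322 to 3567.

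Only 39 of the 866 summits (4.50%, 95% Wilson interval 3.31 to 6.10) were in the IDR-thresholded list, against 20.5% of all summits. Here and below, intervals cover counting error alone. Other summits of the 39 lay in genes with known roles in the embryo. Inx2, which encodes a gap junction protein, had a pooled signal of 214.7 and ranks of 4576 in replicate 1 and 3749 in replicate 3. NetB, which encodes a Netrin that guides axons at the midline, had 187.8 and ranks of 5933 in replicate 1 and 4079 in replicate 3. Further hosts were dmrt99B with a pooled signal of 192.3, the Toll adaptor gene Myd88 with 173.8 and the profilin gene chic with 148.9. CG4004 and Ppa, which encodes an F-box protein, each held 2 of the 39. The pooled signals of the pair were 587.5 and 190.0 in CG4004, 199 bp apart, and 187.4 and 140.0 in Ppa, 212 bp apart. At fragments of 200 to 800 bp, 1 bound stretch and 2 separate ones cannot be told apart here.

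Most 3' UTR summits were weak. Their median signal rank was 21272 of 30000 (quartiles 15648 and 26169), and their signal ranged from 23.9 to 1463 with a median of 35.9. Summits in coding exons were weaker still, with a median signal of 31.4 (783 summits). The median was 48.0 in introns (12268 summits), 50.2 between genes (6337 summits), 76.4 within 500 bp of a coding TSS (8688 summits) and 52.7 over the whole list. The authors' −log10 q was at least 2 at 29.0% of 3' UTR summits, against 55.2% of all summits.

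A summit within 100 bp in both replicates was found for 232 of the 866 (26.8%, interval 23.9 to 29.8), against 45.7% of all summits. Another 341 (39.4%) had a match in replicate 1 alone, 134 (15.5%) in replicate 3 alone and 159 (18.4%) in neither. The shares over all summits were 26.1% for replicate 1 alone, 16.5% for replicate 3 alone and 11.6% for neither. At equal rank the gap largely closed. Among ranks 20001 to 30000, 34 of 488 3' UTR summits (6.97%) were in both replicates, against 7.12% of all summits of those ranks. For ranks 12001 to 20000 the count was 93 of 260 (35.8%), against 37.6% of all, and for ranks 6155 to 12000 it was 67 of 79 (84.8%, interval 75.3 to 91.1), against 73.5%, so that the 3' UTR share was the higher one there. Of the 39 in the IDR-thresholded list, 38 were in both replicates, a share that the choice of that list partly sets. The exception was CG8100, with a pooled signal of 152.3, rank 8046 in replicate 1 and no match in replicate 3.

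**Figure D2:**
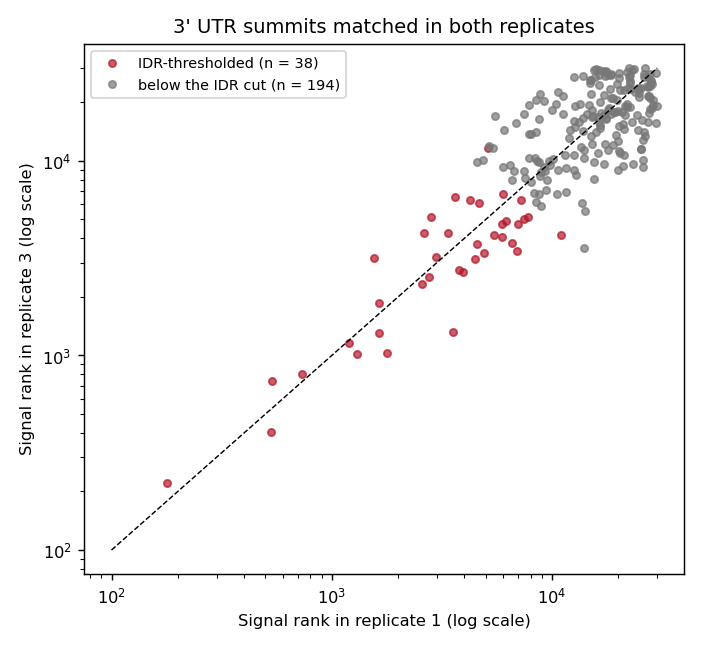
Signal ranks in replicate 1 (x) and replicate 3 (y), both on log axes, of the 232 3' UTR summits with a match in both lists. Red points are the 38 in the IDR-thresholded list, grey points are the 194 below it, and the dashed line marks equal rank. The red points lie along the line down to CG9837 at 179 and 220, and the grey points crowd the weak corner.

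Set against the length of DNA available, the shortage of 3' UTR summits relative to introns was largest in proportion among the strongest peaks and shrank towards weak ranks. The 3' UTR bases that met the rules came to 6088 kb and held 14.2 summits per 100 kb (Poisson interval 13.3 to 15.2), against 4.15 in coding exons, 23.3 in introns and 17.0 between genes. For the 6154 strongest peaks the density was 0.641 per 100 kb in 3' UTRs (interval 0.456 to 0.876), 0.0318 in coding exons, 4.14 in introns and 3.41 between genes. For ranks 20001 to 30000 it was 8.02 in 3' UTRs (interval 7.32 to 8.76), 3.02 in coding exons, 8.55 in introns and 6.03 between genes. Summits of the weakest band were thus about as dense in 3' UTRs as in introns, while strong ones were less dense in 3' UTRs by a margin far outside the counting error. The separate lists gave the same picture, with 0.657 strong summits per 100 kb of 3' UTR in each replicate, against 4.02 and 4.28 in introns in replicates 1 and 3.

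**Figure D3:**
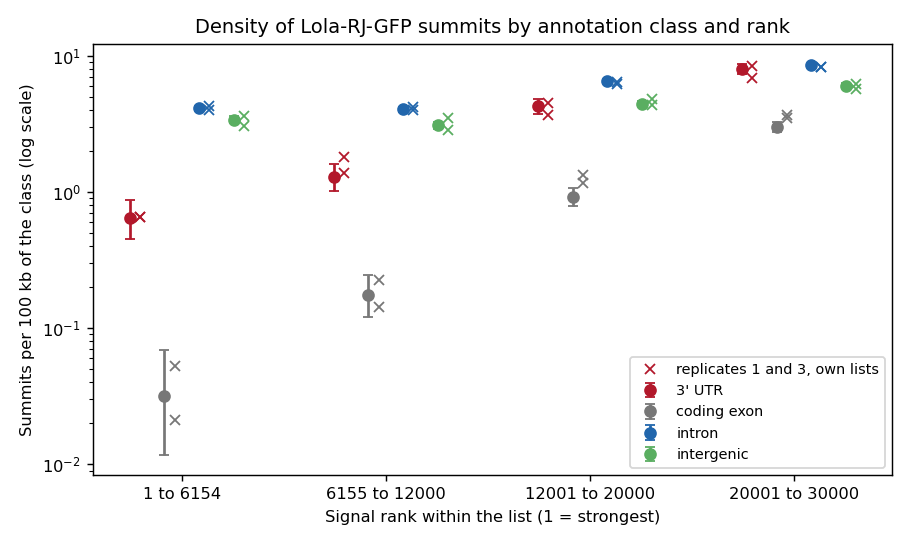
Summits per 100 kb (log axis) in 3' UTRs, coding exons, introns and intergenic DNA for 4 bands of signal rank. Circles with 95% Poisson bars are the pooled list and crosses are the lists of replicates 1 and 3. The 3' UTR density runs from 0.641 in the strongest band to 8.02 in the weakest, where it meets that of introns at 8.55.

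Strong summits lay close to the annotated gene end more often than 3' UTR summits in general. Within the longest 3' UTR at each site, 14 of the 39 IDR-thresholded summits (35.9%, interval 22.7 to 51.6) lay in the last 100 bp, against 148 of all 866 (17.1%, interval 14.7 to 19.7). The share was 11.0% of 54498 windows, of the length described below for A/T content, tiled over the same 3' UTR bases. No window centre lay closer than 50 bp to the edge of a 3' UTR stretch, and leftover bases were dropped. The windows therefore undercount bases near either end, and their shares there are no exact background. In the first 100 bp, next to the stop codon, lay 1 of the 39 (2.56%, interval 0.454 to 13.2) and 93 of the 866 (10.7%, interval 8.85 to 12.98). The share of the windows there was 11.8%, with the same limit. The summit in sv lay 10 bp from the annotated end, that of CG5984 12 bp, those of CG46304 and Uck 18 bp and that of smal 21 bp. Tctp lay 45 bp from its end, CG7872 47 bp, scf 49 bp, CG9107 60 bp and CG9522 82 bp. The summit of CG9837 was not among them, at 984 bp from the end of a 3' UTR of 1419 bp. Among the 40 3' UTR summits of the 6154 strongest peaks of each replicate, 12 (30%) lay in the last 100 bp in replicate 1 and 14 (35.0%) in replicate 3.

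Around the 3' ends of all 13945 coding genes, the density of summits stepped up at the annotated end. In the last 200 bp of 3' UTR it was 15.6 per 100 kb (interval 13.7 to 17.6), against 25.1 (interval 22.2 to 28.4) in the 200 bp past the end, counting there bases outside coding genes. In the 200 bp of 3' UTR before the last bin it was 16.4 (interval 13.9 to 19.1), so the density of all summits did not rise there towards the end. For the IDR-thresholded summits it was 1.26 in the last 200 bp of 3' UTR (20 summits, interval 0.771 to 1.95). In the 9 bins of 200 bp before that it lay between 0.106 (1 summit) and 1.06 (4 summits, interval 0.288 to 2.71), and the intervals of these bins, except the nearest one at 0.106, overlapped that of the last bin. It was 1.93 in the 200 bp past the end and 4.87 at 600 to 800 bp past it. A summit near the ends of several genes is counted at each of them.

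**Figure D4:**
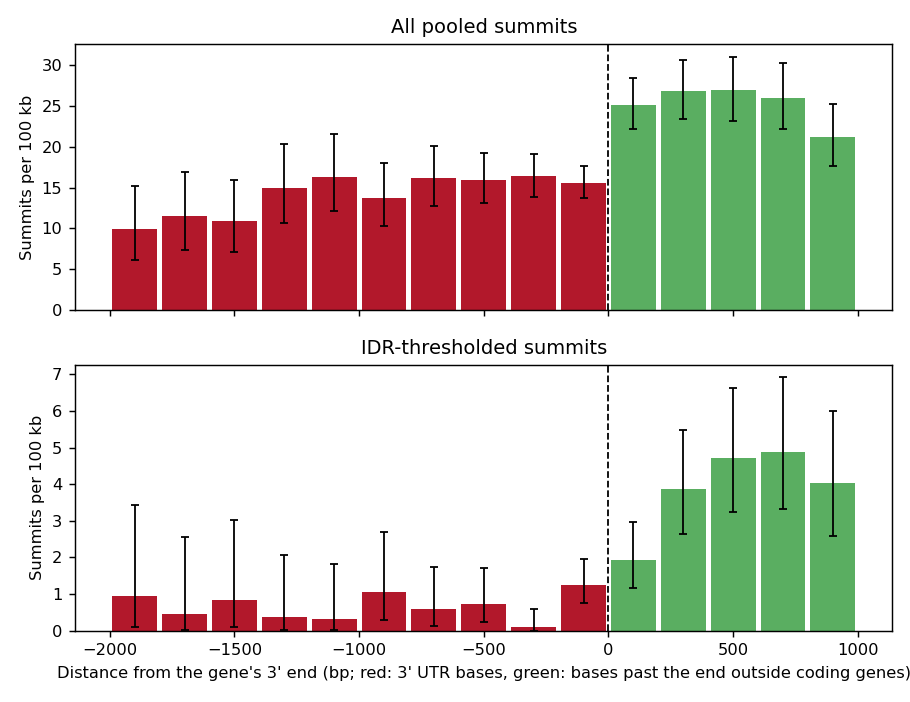
Summits per 100 kb in 200 bp bins around gene 3' ends (dashed line), in 3' UTR bases to the left (red) and in bases outside coding genes to the right (green), with 95% Poisson bars. All pooled summits are above and the IDR-thresholded ones below. The upper densities are 15.6 in the last bin of 3' UTR and 25.1 in the first bin past the end.

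Convergent gene ends were common at 3' UTR summits, and as common in 3' UTRs in general. A convergent neighbour means the next coding gene past the host's 3' end, when it lies on the opposite strand. Its 3' end had to lie at most 1000 bp past the host's, or to overlap the host by any length. Such a neighbour was present at 382 of the 866 (44.1%, interval 40.8 to 47.4), against 42.8% of the tiled windows. The transcripts of host and neighbour overlapped at 129 (14.9%), against 15.4% of the windows. Of the 39 IDR-thresholded summits, 11 (28.2%, interval 16.5 to 43.8) had a convergent neighbour, a share whose interval includes that of the windows. The 5 strongest summits at such ends were those of CG9837, sv, scf, Uck and Tctp. The gap to the neighbour's end was 97 bp between CG9837 and hng2, and 409 bp between Tctp and the zinc transporter gene ZnT86D. The ends of sv and Cals overlapped by 444 bp, and those of Uck and CG5715 by 6 bp. In all, 34 summits lay in the 3' UTRs of 2 or more genes, 22 of these with hosts on opposite strands, so a single host cannot be named for them from position.

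A coding TSS downstream, within 2000 bp of the host's 3' end, was present at 392 of the 866 (45.3%, interval 42.0 to 48.6), against 42.3% of the windows. Of the 39 IDR-thresholded summits, 9 (23.1%, interval 12.6 to 38.3) had such a neighbour. The 5 strongest were those of CG9837, CG5984, qvr, CG46304 and Uck. The summit in qvr lay 1270 bp from the TSS of E(Pc), which encodes a subunit of a histone acetyltransferase complex, and that of CG5984 lay 1166 bp from the TSS of CG18766. Neither a convergent end nor such a TSS was near 269 summits (31.1%), against 31.0% of the windows, and near 22 of the 39 IDR-thresholded summits (56.4%, interval 41.0 to 70.7). CG4004, CG7872, CG33307, CG7378 and CG9107 were the strongest of these. Summits with neither neighbour had a median signal of 40.3, and 8.18% of them were in the IDR-thresholded list. The median was 35.2 and the share 2.88% at convergent ends, and the median was 33.8 and the share 2.30% with a downstream TSS. The convergent and downstream-TSS classes overlap, and CG9837 and Uck are in both. A downstream TSS on either strand counted, so it can be that of the convergent neighbour, as with CG5715 at Uck.

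A stronger summit lay within 1000 bp of 263 3' UTR summits (30.4%), against 39.0% of all summits. It lay in a 3' UTR for 136 of them, at a coding TSS for 52 and between genes for 38. Among the 39 IDR-thresholded summits, 3 had a stronger one that near, namely CG10357 and the weaker of the pairs in CG4004 and Ppa. The other 36 were the strongest summits within 1000 bp. The interval of 46 of the 866 peaks reached to within 500 bp of a coding TSS, and 30 summits lay within 500 bp of the TSS of a non-coding gene, none of them in the IDR-thresholded list. A further coding gene covered 70 summits, a non-coding gene 22, 3 of these in elav under the long non-coding RNA enrr, and a transposable element 4.

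The strong 3' UTR summits were A/T-rich. The median A/T content of the window from 50 bp before to 50 bp after the summit was 72.3% for the 39 IDR-thresholded summits, against 66.3% over all 866 and 65.3% over the tiled windows. It was 64.4% for the 194 weaker summits found in both replicates and 66.3% for the other 633. For the strongest peaks of each replicate in 3' UTRs it was 68.3% in replicate 1 and 70.3% in replicate 3. A higher A/T content of strong summits was not limited to 3' UTRs. The medians at ranks 1 to 6154 and at ranks 20001 to 30000 were 72.3% and 66.3% in 3' UTRs, 70.3% and 60.4% in introns, and 71.3% and 59.4% between genes. In coding exons they were 45.0% and 46.5%, and in 5' UTRs 59.4% in both bands. Set against the windows of their own 3' UTR, 25 of 36 IDR-thresholded summits with at least 3 windows to compare were higher in A/T, 10 were lower and 1 was equal, with a median difference of 6.19 percentage points. Over the 776 summits that could be compared in this way the median difference was 0, with 357 higher and 371 lower.

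**Figure D5:**
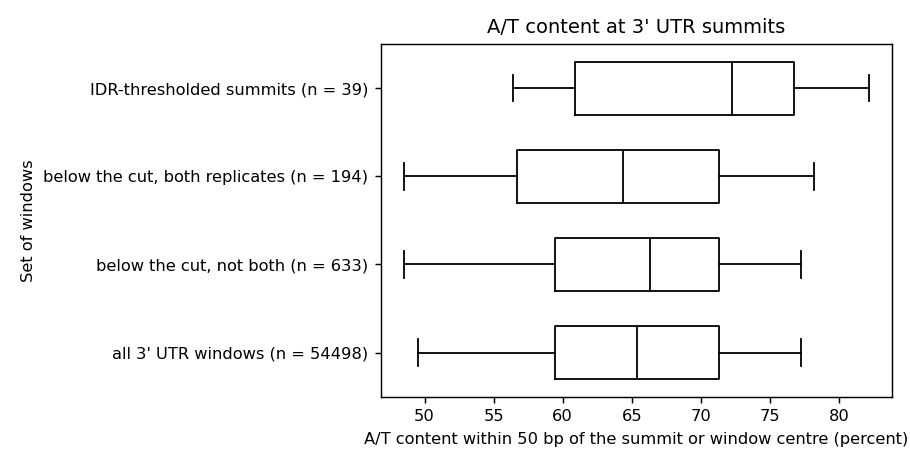
A/T percent of the DNA within 50 bp on either side at 3' UTR summits in the IDR-thresholded list, at weaker summits in both replicates, at the other weaker summits, and over all tiled 3' UTR windows, from top to bottom. Boxes span the quartiles, the line is the median and whiskers run from the 5th to the 95th percentile. The medians are 72.3, 64.4, 66.3 and 65.3%.

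Short DNA motifs were searched on both strands of the same windows. GAGAG, the letters bound by GAGA factor, was in 87 of the 866 windows and in 5451 of the 54498 tiled windows, which is 10% of each. It was in 4 of the 39 IDR-thresholded windows, those of CG5984, qvr, dmrt99B and NetB. TATCGATA, the letters of the DRE promoter element, was in 3 of the 866 (0.346%), those of exu, pcs and Hipk, against 0.281% of the tiled windows and 3.64% of summits at promoters. AATAAA, which as a forward-strand match is the polyadenylation signal, was in 251 (29.0%, interval 26.1 to 32.1), against 26.7% of the tiled windows, and in 15 of the 39 IDR-thresholded windows (38.5%, interval 24.9 to 54.1). The E-box letters CANNTG were in 31.9%, against 33.7% of the tiled windows, and AAAAAA was in 22.6%, against 22.9%. A match describes the letters and not a bound site. The 39 windows were also higher in A/T, and the part of A/T content in the AATAAA share was not tested.

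Genes with a summit had long 3' UTRs, with a median of 995 eligible bases, against 210 bases in the other genes. The share of genes with a summit was 1.09% where the eligible 3' UTR was at most 250 bases and 28.5% where it was over 4000 bases, in increasing order over the 6 length classes. Per length of DNA the classes were closer, at 8.94 summits per 100 kb in the shortest, 17.0 at 501 to 1000 bases and 11.3 in the longest. Of the 699 genes, 559 had 1 summit, 102 had 2, 23 had 3 and 15 had 4 or more.

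The gene with the most 3' UTR summits was brat, which encodes a translational repressor that restrains neural stem cell growth. It had 8 along a longest 3' UTR of 8499 bases, with pooled signals from 24.8 to 48.4, and 1 of them was found in both replicates, at ranks 25557 and 16194. Some of the 8 lay closer together than the longest fragments of 800 bp, as did those at 2L:19171626 and 2L:19171854. Summits that close are not shown to be separate sites, in brat or in the genes below. Hrb27C, which encodes an RNA-binding hnRNP protein, had 5 with signals from 25.1 to 55.1 and none in both replicates. Hipk, which encodes a protein kinase, had 5 with signals from 25.7 to 41.9, and drn had 5 with signals from 26.3 to 46.6, none in both replicates either. The gene aqz had 5 with signals from 30.1 to 69.8, and 3 of them were in both replicates. CG32767, CG3638, Imp, which encodes an mRNA-binding protein, Inx2, Sxl, bun, corto and elav had 4 each. CG46315 also had 4, of which 3 lay in the 3' UTR of CG6424 too and are assigned to it by the nearer stop codon.

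In the gene lists, summits were counted against 6.10% of all coding genes with eligible 3' UTR and a density of 14.2 per 100 kb. Of 40 RNA-binding and translation regulator genes, 16 (40.0%) had a 3' UTR summit, 14 by the list of replicate 1 and 16 by that of replicate 3. Their eligible 3' UTRs were long, with a median of 3831 bases against 231 over all genes, and their 44 summits gave 26.9 per 100 kb (interval 19.6 to 36.2). The interval treats summits of 1 gene, such as the 8 in brat, as independent counts and may be too narrow. None of the 44 summits was in the IDR-thresholded list and 9 were in both replicates. The strongest were in Rbp9 with a pooled signal of 129.2, fne with 108.1 and exu with 85.9. Rbp9 and fne encode ELAV-family proteins of neurons, and exu a protein that localises bicoid mRNA in the egg. Rbp9 ranked 8313 in replicate 1 and 6812 in replicate 3, and exu 10054 in replicate 1 and 10275 in replicate 3, whereas fne ranked 6557 in replicate 3 and had no match in replicate 1. The founding member elav had 4 summits, 3 of them in both replicates, and pum, which encodes a translational repressor, had 3, with 1 in both.

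Of 40 axon guidance genes, 12 (30%) had a summit in the pooled list, 15 in that of replicate 1 and 8 in that of replicate 3. The 16 summits gave 17.4 per 100 kb (interval 9.96 to 28.3), which includes the density over all genes. NetB was the strongest, followed by comm, which controls midline crossing by axons, with 67.5, and the L1-type adhesion gene Nrg with 48.1. The summit of comm ranked 11971 in replicate 1 and 13080 in replicate 3. The guidance ligand gene sli had a signal of 34.9 and its receptor gene robo2 one of 39.3, each with a match in replicate 1 alone.

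Ribosomal protein genes have short 3' UTRs, with a median of 170 eligible bases, and 12 of 80 (15%) had a summit, 1 each. This gave 51.7 per 100 kb (interval 26.7 to 90.3), the highest density of the 13 lists. Their signals were weak, from 25.5 to 64.9, and RpS23 alone was in both replicates, at ranks 13978 and 11422. RpL26 followed with 55.3 and RpS12 with 37.1. By the replicates' own lists 7 genes had a summit in replicate 1 and 9 in replicate 3.

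The signalling list had 16 summits at 26.6 per 100 kb (interval 15.2 to 43.3), close to the density of the RNA-binding list. Of 51 signalling genes, with a median of 885 eligible bases, 10 (19.6%) had a summit. They were led by aop, an ETS repressor gene, with 72.7, the receptor tyrosine kinase inhibitor gene sty with 69.7 and the Wingless receptor gene fz2 with 67.3. The next lists had fewer summits, at 15.7 per 100 kb for ecdysone response genes to 27.8 for Notch pathway and E(spl) genes. Their intervals all included the 14.2 per 100 kb over all genes. Of 8 Hox genes 2 had one, Antp with 112.7 and Ubx with 36.8. The stronger summit of Antp ranked 9390 in replicate 1 and 7085 in replicate 3. Of 26 segmentation genes 3 had one, inv with 72.6, wg with 47.5 and Kr with 45.7, each found in both replicates. Of 25 Notch pathway and E(spl) genes 5 had one and none was in both replicates, with E(spl)m3-HLH leading at 44.0, then Tom at 39.1 and E(spl)m6-BFM at 33.1. Of 33 cytoskeleton and adhesion genes 6 had one, led by chic, by the adhesion gene rst with 131.2 and by the actin gene Act5C with 96.5. Of 18 ecdysone response genes 5 had one, led by the nuclear receptor gene Hr4 with 133.8, shd, which encodes the enzyme that makes the active hormone, with 68.4, and the hormone's receptor gene EcR with 66.5.

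Of 30 ion channel and synaptic genes 5 had a summit, at 7.29 per 100 kb (interval 3.15 to 14.4), the lowest density of the lists although their median eligible 3' UTR was 2826 bases. The sodium channel gene para led with 52.2, then nAChRalpha7 with 46.5 and the vesicle priming gene unc-13 with 38.8. Of 30 chromatin and insulator genes 5 had one, led by Su(z)2 with 56.7, Psc with 44.6 and osa with 37.8, and of 30 cell cycle genes 2 had one, CycB3 with 56.4 and Dp with 24.7. Of 16 BTB transcription factor genes 4 had one, led by lola with 61.1, ttk with 41.4 and ab with 24.4. The densities were 14.6 per 100 kb for chromatin, 21.8 for cell cycle and 16.9 for BTB genes, with intervals that include 14.2.

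The 3' UTRs of the lola gene itself held 5 of the 866 summits, all weak. The one in lola-RR also lay in the 3' UTR of pre-lola-G, to which the nearer stop codon assigns it. Alternative last exons give its splice forms separate 3' UTRs, and the summits lay in those of lola-RL, with a signal of 61.1, of lola-RD and lola-RE with 51.4, of lola-RP with 37.9, of lola-RR with 33.1 and of lola-RA with 24.98. The first ranked 12518 in replicate 1 and 27024 in replicate 3, the second 26544 in replicate 1 and 13420 in replicate 3, and the other 3 were not in both replicates. No summit lay in the 3' UTR of lola-RJ, the isoform that was tagged, at 2R:10496295-10497178 on dm6. The transgene's own sequence was not used here, so signal from it cannot be told apart from that of the native gene.

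Summits were spread over the chromosome arms at 12.7 per 100 kb of eligible 3' UTR on 3R to 15.4 on 3L, with 13.9 on X, 14.5 on 2L and 14.7 on 2R, and at 20.4 (interval 12.4 to 31.5) on chromosome 4, which held 20. X held 197 summits, and 14 of the 39 in the IDR-thresholded list, in 1417 of the 6088 kb of eligible 3' UTR. Of the 3' UTR summits on X 35.0% were in both replicates, against 15% on chromosome 4 and 22.7% to 27.2% on the other arms. The share in both replicates over all summits of each arm was not computed, so this difference is not shown to be particular to 3' UTRs. At the 500 bp limit, the closest summits kept were 3 at 510 bp, among them those of CG2269 with a signal of 42.1 and RpL11 with 26.5. The closest left out were CG34132 and Cirl at 500 bp, with 66.1 and 46.5, and CNBP at 498 bp, with 189.4. By distance from the nearest coding TSS, 3' UTR summits were most frequent relative to the tiled windows at 1001 to 2000 bp, with 33.4% of summits against 23.9% of windows, and least beyond 5000 bp, with 19.2% of summits against 27.2% of windows.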

How the data were processed

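The analysis started from the deposited peak lists (dm6 coordinates), 1 per replicate, 1 called on both replicates together and 1 thresholded by IDR. Per the submitters' file records, a control alignment entered the calling. How reads were aligned and which program called peaks is not given in the sources used here. Read depth is unknown. The deposited signal value ranks peaks within a list, and the deposited q-value is given as −log10. Each summit is the peak's start plus the deposited summit offset, a score counted in bases. Genes came from Ensembl release 115 (BDGP6.54) and sequence from RefSeq. Summits were matched between lists within 100 bp. Classes were taken in the order promoter, coding exon, 3' UTR, 5' UTR, intron, other transcribed, intergenic. Shares have 95% Wilson and densities exact 95% Poisson intervals. They cover counting error only, because neighbouring peaks share libraries, and they treat summits that lie close together as independent. A/T content and motifs were read from 50 bp before to 50 bp after the summit. A gene's eligible 3' UTR is the part outside coding sequence and more than 500 bp from coding TSSs. The host of a summit in several 3' UTRs is the gene with the nearest stop codon.

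The members and lists were chosen with earlier results of these data known. Genes are named as hosts of the 20 strongest summits, hosts of 2 or more IDR-thresholded summits, the 10 hosts with most summits, the 3 hosts with the strongest summit in each gene list, the 5 strongest of each neighbour class, those next to the 500 bp limit, and lola. Others named (such as NetB's fellow hosts in the IDR-thresholded list, elav, pum, sli and robo2) were chosen after their values were seen. Code was checked on toy data with known answers, and run in Python 3.11.15 with numpy 2.4.6, pandas 2.3.3, scipy 1.17.1 and matplotlib 3.10.9. Alternatives varied the TSS distance, the TSS set, the 3' UTR and coding sequence rules, the peak list, and the match, neighbour and window distances.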

Additional observations from a re-analysis of the deposited data

How the results depend on the processing

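There were 99 values, of which 10 are those reported. Of the 89 others, 66 stayed within the counting error or spread of the reported value and 23 moved. The 66 include the values for keeping only the strongest summit of each peak interval. No intervals were identical, so that setting kept all 866 summits and its values could not move. They are therefore no test of how stable the results are. The values of the other classes and of the tiled windows were not recomputed, so the direction of comparisons was not tested. The number of 3' UTR summits was 39 in the IDR-thresholded list and 118 among the 12000 strongest peaks. The share found in both replicates was 14.7% with a match within 50 bp, 36.5% within 200 bp and 8.20% against the 12000 strongest peaks of each replicate. The share at convergent ends was 39.9% with a TSS distance over 250 bp, 28.2% in the IDR-thresholded list and 40.2% with ends within 500 bp. The share with a downstream TSS was 50.2% with a TSS distance over 250 bp, 41.3% over 1000 bp, 23.1% when the TSS had to lie within 1000 bp and 64.2% within 4000 bp. The share with a stronger summit nearby was 34.2% with a TSS distance over 250 bp, 26.7% over 1000 bp, 16.4% for summits within 500 bp and 61.5% within 2000 bp. Median A/T content was 64.7% within 25 bp of the summit and 64.9% within 100 bp. The density was 12.99 per 100 kb with coding sequence allowed, 12.7 to 15.5 by the list of a single replicate and 0.641 by the IDR-thresholded list. GAGAG was in 20.4% of windows that reached 100 bp to either side. Longer distances and windows count more by construction, and the cause of the other moves was not tested. No paired analysis was possible because there was 1 group of samples. With 2 replicates, 1 control and unknown read depth, a summit missing from a list was not detectable at this depth and is not shown to be absent.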

Other observations

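Further genes held an IDR-thresholded 3' UTR summit and were named here after their values were seen. The kinase gene eas, which acts in phospholipid synthesis, had a pooled signal of 149.7 and ranks of 7802 in replicate 1 and 5128 in replicate 3. The summit of aay, which encodes a phosphoserine phosphatase, had 151.2, ranks of 7006 and 4718 in replicates 1 and 3, and lay 17 bp from the annotated end. REG, which encodes a proteasome activator, had 143.8, and its end lay on the base next to the end of the integrin gene mew, with a gap of 0 bp. The gap between the ends of Myd88 and Drep2 was 1 bp. Crag had 182.4 and raskol, which encodes a Ras GTPase-activating protein, had 170.1, at 692 and 131 bp from the ends of their 3' UTRs.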
